A study of Mus musculus with 4 samples.

Results

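The canonical Wnt target and feedback genes are transcripts that β-catenin and its DNA-binding partners switch on in many tissues, and most of their products act back on the same pathway. They were taken here as the 10 genes Axin2, Nkd1, Lef1, Tcf7, Sp5, Lgr5, Rnf43, Znrf3, Notum and Dkk1, found by gene name among the non-control probes of the arrays, out of 24357 named genes. They had 15 probes, of which 14 were bright enough to test, and each of the 10 genes had at least 1 tested probe. The RNA was that of whole ureters dissected from NMRI mouse embryos at E18.5, shortly before birth, and each of 4 arrays of 2 colours carried an RNA of a conditional mutant beside an RNA of a control. The mutant, called cKO below, was Pax2-cre/+; Trp63 dN-flox/dN-flox, with a cre driven from Pax2, a gene active in the nephric duct from which the ureter epithelium arises, and both Trp63 alleles carrying a flox at ΔNp63, the p63 isoform that directs transcription in basal layers of epithelia. The control, Trp63 dN-flox/?, shared at least 1 floxed allele and had no cre in its label. Array 2 held a male pair by its labels, and arrays 1, 3 and 4 held female pairs. Each RNA was 200 ng of total RNA amplified in 1 round. The cKO was in the AlexaFluor647 (red) channel on arrays 1 and 3 and in the AlexaFluor555 (green) channel on arrays 2 and 4. Nothing in the labels says whether an RNA came from 1 embryo or from several, so every p-value refers to these 4 arrays. The p-values and intervals use the spread left after a dye term, drawn toward that of all tested genes, and not the printed SD alone.

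Wnt ligands bind Frizzled receptors with the co-receptors Lrp5 or Lrp6 and stop the destruction complex, built on Axin proteins, from removing β-catenin. The stabilised β-catenin then binds TCF and LEF proteins on DNA and raises the transcription of genes that include the pathway's own inhibitors. In the embryonic ureter, Wnt ligands of the epithelium act through β-catenin on the surrounding mesenchyme, where the pathway is needed for smooth muscle to form, and Axin2 is the usual readout of its activity.

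The arrays gave usable signal throughout: 72.4% to 90.0% of spots per channel were well above background, and no spot was saturated. Array 1 had the largest shares, 90.0% in green and 82.6% in red, against 72.4% to 76.5% on the other arrays. The log2 ratios of 18161 tested genes correlated between arrays with r between 0.53 and 0.73, across genes of shared arrays and so as a description. The targeted gene Trp63 had intensities of 2126, 3699, 3395 and 2983 in cKO ureters on arrays 1 to 4, against 15448, 11871, 13898 and 13032 in control ureters, a log2 ratio of -2.18 ± 0.50 (SD, n = 4 arrays; adjusted p = 0.00207). Whether its probe lies in the deleted part was not examined, so this value is a check of the transcript's level only. The mean of all tested Trp63 probes gave a log2 ratio of -1.38 (adjusted p = 0.00189), so the size of the fall depends on the probe. The 8 listed markers of basal urothelium, the cells that p63 marks, were lower in all 8 cases (median log2 ratio -2.22). The targeted gene Trp63 is itself among these 8. Of the markers of epithelium in general, 4 of 6 were lower (-0.66). None of the 6 superficial urothelium markers (-0.46), the 6 of smooth muscle (0.16), the 6 of ureter mesenchyme (0.13) or the 4 of endothelium (0.18) passed the test. In whole ureters, fewer cells of a type and less RNA per cell cannot be told apart. Of the markers of other organs, 4 of 6 hepatocyte genes were higher in the cKO, with array medians of 2.28, 2.59, 1.397 and 0.57 and summed intensities of 19025 to 169902 in cKO ureters against 7492 to 30781 in control ureters; all 6 passed the filter on dim probes. Among the remaining lists, 1 of 7 nephron genes was higher, 2 of 6 genes of the nephric and collecting duct were higher and 1 lower, 1 of 4 adrenal cortex genes was higher, 1 of 4 intestinal genes was higher and 1 lower, and 0 of 4 leukocyte and 0 of 5 neuron and glia genes were called. The part of these shifts in the values below was not tested.

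Of the 10 Wnt target and feedback genes, 7 were higher in cKO ureters at an adjusted p under 0.05 and 0 were lower. Dkk1, Axin2 and Sp5 stood 1.69-fold to 1.73-fold higher, Nkd1 and Lgr5 about 1.5-fold, and Lef1 and Notum 1.34-fold and 1.22-fold. Tcf7, Rnf43 and Znrf3 did not pass. From the authors' value table of the same arrays, 1 of the 10, Sp5, was called higher and 0 lower, and leaving out array 1, 3 or 4 left 3, 3 and 4 called. For comparison, 530 of all tested genes (2.92%) were called higher and 1023 (5.63%) lower by the same rule. The median log2 ratio over the 10 genes was 0.50, with array medians of 0.50, 0.34, 0.50 and 0.46, and that of all tested genes was 0.00. The ratio was above 0 on all 4 arrays for 9 of the 10, where 14.3% of tested genes were, and below 0 on all 4 for Znrf3, where 16.3% were. In 5 of the 10 the lowest cKO intensity was above the highest control intensity, which held for 3.66% of tested genes; in none was the highest cKO intensity below the lowest control intensity, which held for 6.18%. These counts are descriptions, since the genes were chosen with earlier results of these arrays known.

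**Figure D1:**
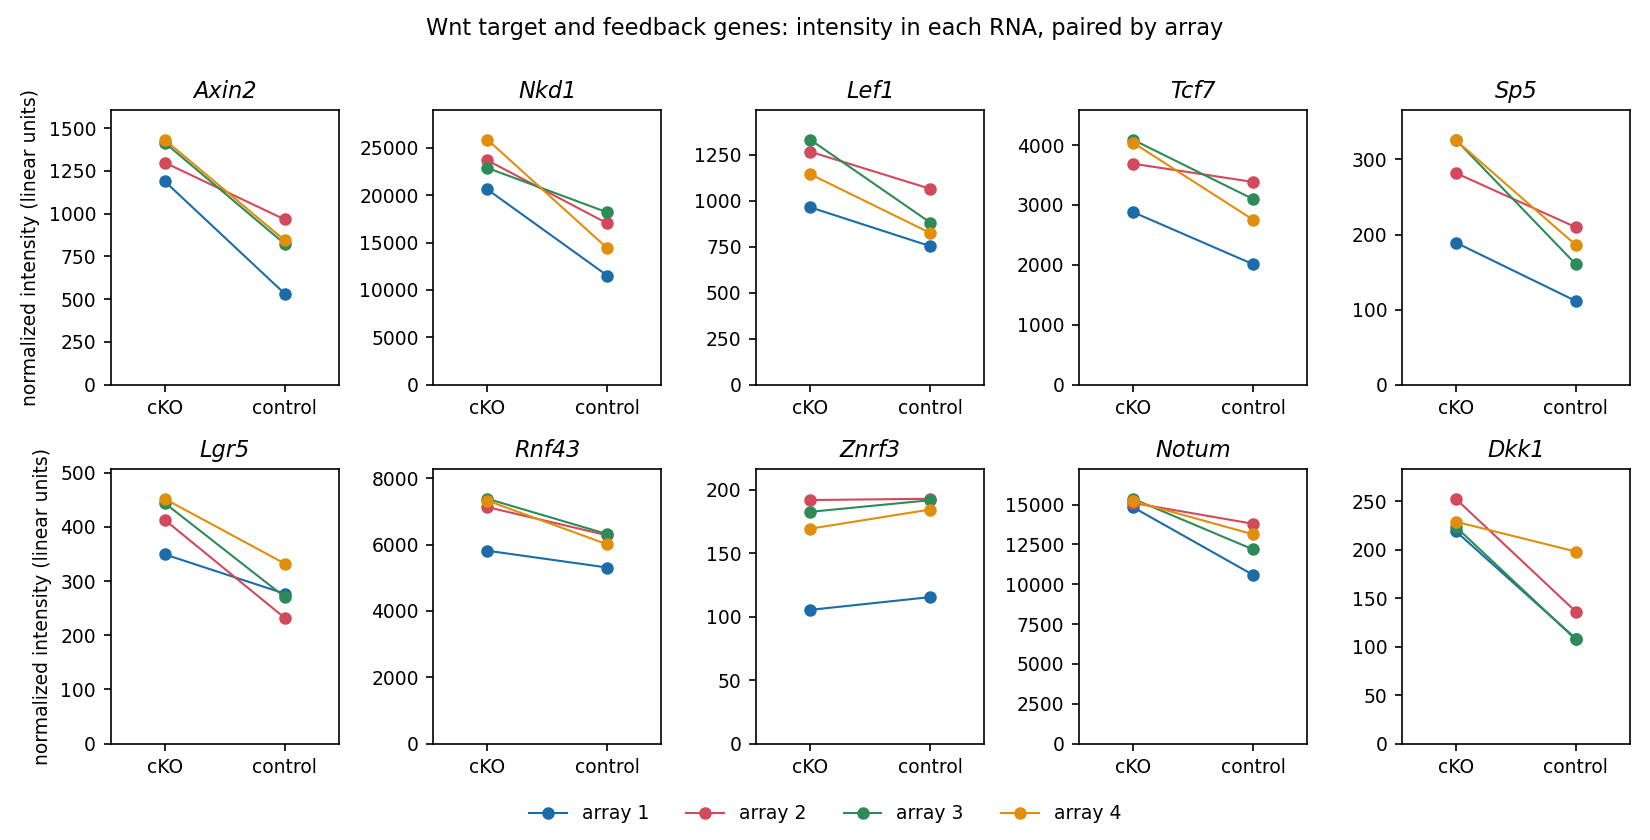
Normalized intensity (linear scale from 0, one scale per gene) of each Wnt target or feedback gene in the 4 cKO RNAs (left) and the 4 control RNAs (right); each line joins the RNAs of 1 array. The cKO and control points do not overlap for Axin2, Nkd1, Lgr5, Notum and Dkk1, and every line slopes down toward the control except those of Znrf3.

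Axin2 and Nkd1 are feedback inhibitors that act inside the cell. Axin2 is an inducible scaffold of the complex that degrades β-catenin. Its brighter probe (mm9, chr11:108812034-108812093, + strand) had intensities of 1190.1, 1299, 1416 and 1433 in cKO ureters on arrays 1 to 4, against 532, 966, 824 and 844 in control ureters. All 4 cKO values were above all 4 control values, and array 1 had the lowest value of each genotype. The log2 ratios were 1.16, 0.43, 0.78 and 0.76, with a mean of 0.78 ± 0.30 (SD, n = 4; 95% interval 0.55 to 1.02; adjusted p = 0.00948), a 1.72-fold rise. The mean was 0.97 over the 2 arrays with the cKO in red and 0.60 over the 2 with it in green. The order was the reverse for Nkd1 (0.59 and 0.66), Lgr5 (0.52 and 0.64), Rnf43 (0.18 and 0.23) and Znrf3 (-0.10 and -0.07). The dye term passed for none of the Wnt target and feedback genes (lowest adjusted p = 0.833). Leaving out any 1 array kept the call. The second Axin2 probe (mm9, chr11:108803927-108803986, + strand) was close to the background, with intensities of 91.2 to 131 in cKO ureters and 78.4 to 116 in control ureters. It was well above background on all 4 arrays in the cKO and on 3 of 4 in the control. Its log2 ratio, 0.20 ± 0.06, was above 0 on all 4 arrays, but it did not pass over the 28396 probes tested (adjusted p = 0.0996). The mean of both probes gave Axin2 a log2 ratio of 0.49 (adjusted p = 0.0143), so the size of the Axin2 difference depends on the probe.

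Nkd1 (Naked cuticle homolog) binds Dishevelled and dampens the signal at that step. Its brighter probe (mm9, chr8:91116160-91116219, + strand) had intensities of 20605, 23682, 22876 and 25863 in cKO ureters, against 11498, 17013, 18178 and 14392 in control ureters. The groups did not overlap. Its log2 ratios were 0.84, 0.48, 0.33 and 0.85, a mean of 0.62 ± 0.26 (SD, n = 4; adjusted p = 0.0305). The second probe (mm9, chr8:91118468-91118527) gave nearly the same mean, 0.53 ± 0.13 (adjusted p over probes 0.0120; 2.31% of probes were called higher). The call on the brighter probe was lost without array 1 (adjusted p = 0.0862) or array 4 (0.111).

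Lef1 and Tcf7 are among the DNA-binding partners of β-catenin, and Sp5 is a zinc-finger transcription factor that Wnt signals induce and that acts on Wnt target promoters. Lef1 (mm9, chr3:130926200-130926259, + strand) had intensities of 965, 1267, 1332 and 1145 in cKO ureters, against 753, 1065, 882 and 825 in control ureters. The ranges overlapped, since the cKO value of array 1 was below the control value of array 2, while within each array the cKO was higher. The mean log2 ratio was 0.42 ± 0.15 (SD, n = 4; adjusted p = 0.0273). A second Lef1 probe, whose ends lie in mm9 at chr3:130907851 and 130926012 and so span 18162 bases of the genome, gave 0.47 ± 0.17 (adjusted p over probes 0.0244). The Lef1 call was lost without array 1 (adjusted p = 0.0571), array 3 (0.1004) or array 4 (0.111).

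Tcf7 (mm9, chr11:52066114-52066173, - strand) had intensities of 2879, 3688, 4089 and 4039 in cKO ureters, against 2011, 3383, 3097 and 2753 in control ureters. The groups overlapped, and the difference was smallest on array 2. Its mean log2 ratio of 0.40 ± 0.19 (SD, n = 4; 95% interval 0.19 to 0.61) missed the threshold (adjusted p = 0.0515). The dimmer Tcf7 probe (mm9, chr11:52066738-52066797) had a smaller ratio with a smaller spread, 0.31 ± 0.12, and passed over all probes (adjusted p = 0.0272). Tcf7 also passed without array 2 (adjusted p = 0.0320), and its side of the threshold was therefore not settled by these arrays.

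Sp5 (mm9, chr2:70315688-70315747, + strand) had intensities of 189, 282, 326 and 326 in cKO ureters, against 111, 209.8, 160.5 and 186 in control ureters. The cKO value of array 1 lay within the control range, and within each array the cKO was higher. The log2 ratios were 0.76, 0.43, 1.02 and 0.81, a mean of 0.76 ± 0.25 (SD, n = 4; 95% interval 0.54 to 0.97; adjusted p = 0.00867), a 1.69-fold rise. The mean was 0.89 over the arrays with the cKO in red and 0.62 over those with it in green. Leaving out any 1 array kept the call, as for Axin2. The Sp5 probe is dim, and its ratio was 0.94 with a normexp offset of 10 in place of 50 and 1.16 from the authors' value table, which differs in more than the background correction.

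**Figure D2:**
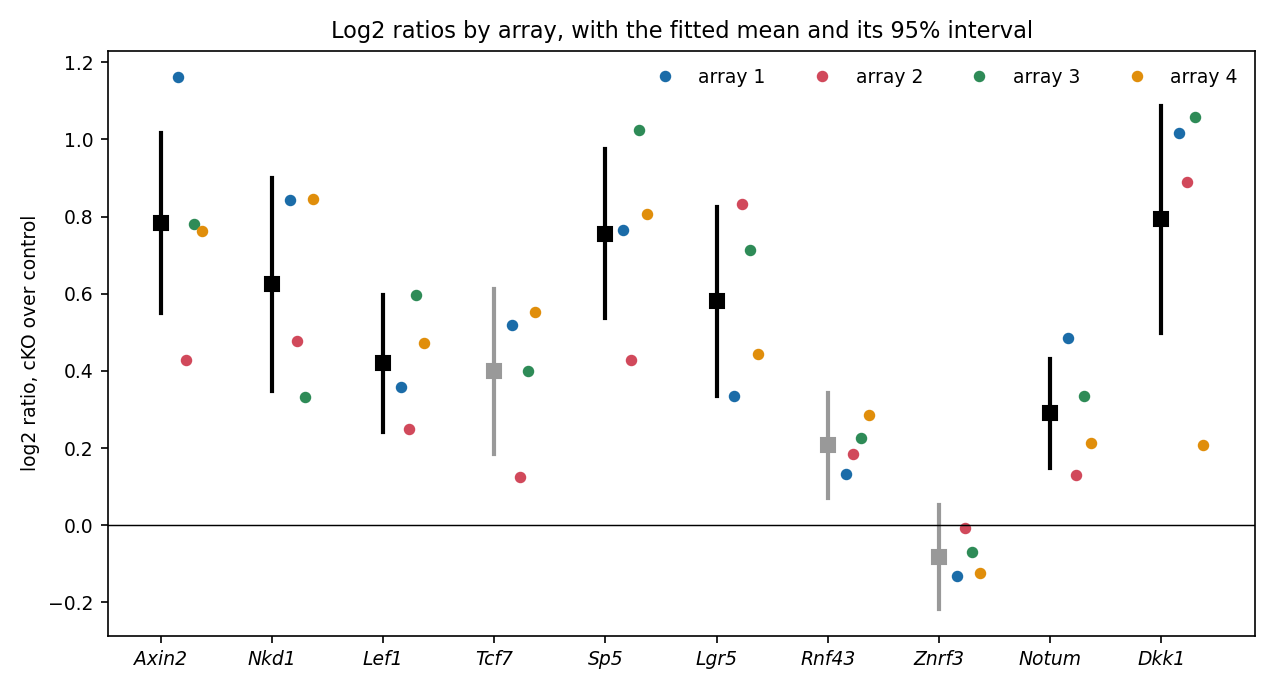
Log2 ratio of cKO over control for each gene: squares and bars are the fitted mean and its 95% interval (black, adjusted p under 0.05; grey, not called) and coloured points are the 4 arrays. The means run from -0.08 for Znrf3 to 0.79 for Dkk1, and the ratio of array 4 for Dkk1, 0.21, lies far below its other points.

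Lgr5, Rnf43 and Znrf3 act at the cell surface on the supply of Frizzled receptors. Rnf43 and Znrf3 are ubiquitin ligases that remove Frizzled from the membrane, and Lgr5 is a receptor for R-spondins, which inhibit those ligases. Lgr5 (mm9, chr10:114887403-114887462, - strand) had intensities of 349, 413, 444 and 452 in cKO ureters, against 277, 232, 271 and 333 in control ureters. The groups did not overlap. The mean log2 ratio was 0.58 ± 0.23 (SD, n = 4; adjusted p = 0.0269), a 1.496-fold rise, and the ratio was highest on array 2 (0.83). The call was lost without array 2 (adjusted p = 0.0743) or array 3 (0.0878). A second Lgr5 probe, at mm9 chr10:114900686-114900745, was well above background on 1 of 4 arrays in each genotype and was not tested.

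Rnf43 (mm9, chr11:87548958-87549017, + strand) had intensities of 5817, 7131, 7382 and 7325 in cKO ureters, against 5309.5, 6280.1, 6316 and 6006 in control ureters. The array values overlapped, and the cKO was higher within each array by a small and even margin, with log2 ratios of 0.13, 0.18, 0.23 and 0.29. The mean, 0.21 ± 0.07 (SD, n = 4; 95% interval 0.07 to 0.34), did not pass (adjusted p = 0.0870). Znrf3 (mm9, chr11:5180918-5180977, - strand) had intensities of 105, 192, 183 and 169.5 in cKO ureters, against 116, 193, 192 and 185 in control ureters. Its groups overlapped almost wholly, and its mean log2 ratio was -0.08 ± 0.06 (SD, n = 4; 95% interval -0.22 to 0.05; adjusted p = 0.427). The Znrf3 probe is dim, and its ratio was -0.11 with a normexp offset of 10 and -0.13 from Agilent's processed signals. The interval therefore bounds the ratio at the offset of 50, and not the change of the transcript.

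Notum and Dkk1 are secreted. Notum is an enzyme that removes the lipid that Wnt ligands need, and Dkk1 binds Lrp5 and Lrp6 and keeps them from Wnt. Notum (mm9, chr11:120515209-120515268, - strand) had intensities of 14836, 15106, 15366 and 15221 in cKO ureters, against 10595, 13798, 12189 and 13139.6 in control ureters. The cKO values lay close together and above all control values. The mean log2 ratio was 0.29 ± 0.15 (SD, n = 4; adjusted p = 0.0404), 0.41 over the arrays with the cKO in red and 0.17 over those with it in green. Leaving out any 1 of the 4 arrays ended the Notum call (adjusted p from 0.0897 to 0.175), which held for no other of the 7.

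Dkk1 (mm9, chr19:30621424-30621483, - strand) had intensities of 219, 253, 224 and 229 in cKO ureters, against 108, 136, 107.5 and 198 in control ureters. The groups did not overlap, and the control RNA of array 4 stood near the cKO values. The log2 ratios were 1.02, 0.89, 1.06 and 0.21, a mean of 0.79 ± 0.40 (SD, n = 4; 95% interval 0.50 to 1.09; adjusted p = 0.0184), a 1.73-fold rise. The mean was 1.04 over the arrays with the cKO in red and 0.55 over those with it in green, which include array 4. The call was lost without array 1 (adjusted p = 0.0735) or array 3 (0.0711). The median ratio of the hepatocyte markers was also lowest on array 4 (0.57, against 1.397 to 2.59 on the other arrays), though not for each of them (Ttr, 0.41 on array 4 and 0.28 on array 1), and their part in the Dkk1 value was not tested. Dkk1 is a dim probe, and its ratio was 1.37 from Agilent's processed signals. The ratio of array 2, 0.89, lay between those of arrays 4 and 1.

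**Figure D3:**
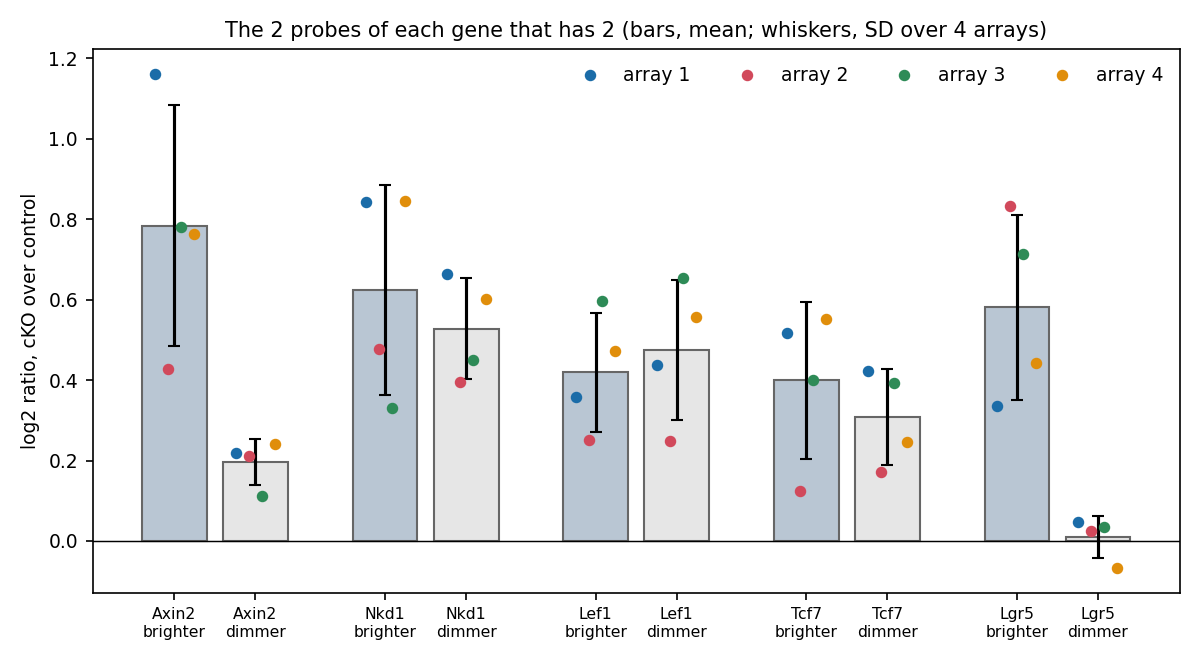
Log2 ratio of cKO over control for the brighter and the dimmer probe of the 5 genes with 2 probes: bars are means over 4 arrays, whiskers SDs and points single arrays. The probes of Nkd1, Lef1 and Tcf7 lie within 1 SD of each other, while the dim second probes of Axin2 and Lgr5 are at 0.20 and 0.01.

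Promoter sequence was available for 7 of the 10 genes (RefSeq, GRCm38.p6), as 12 windows that run from 250 bases before each annotated start to 50 after it; Lgr5, Notum and Znrf3 had no entry. The windows were searched for the core letters that TCF and LEF proteins bind, CTTTG followed by any pair made of A or T bases, on either strand. No other motif was searched. At least 1 match was found in 3 of the 12 windows, against 16.9% of the windows of 32851 start sites. Sp5 and Dkk1 had 2 matches each, where 1.94% of all windows had at least 2, and 1 of the 4 Lef1 start sites had 1. The 250 bases before the start are shown for Sp5 and Dkk1, which rose and have 2 matches, and for Axin2, which rose by about as much and has none in this window. Each reads 5′ to 3′ on the gene's strand, with the matched letters in capitals.
Sp5, chr2:70474673-70474922, + strand: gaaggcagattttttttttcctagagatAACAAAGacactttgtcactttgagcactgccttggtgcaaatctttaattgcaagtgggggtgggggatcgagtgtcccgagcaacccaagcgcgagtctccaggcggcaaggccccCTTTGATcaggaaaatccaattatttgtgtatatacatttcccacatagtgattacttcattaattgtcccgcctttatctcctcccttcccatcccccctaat
Dkk1, chr19:30549497-30549746, - strand: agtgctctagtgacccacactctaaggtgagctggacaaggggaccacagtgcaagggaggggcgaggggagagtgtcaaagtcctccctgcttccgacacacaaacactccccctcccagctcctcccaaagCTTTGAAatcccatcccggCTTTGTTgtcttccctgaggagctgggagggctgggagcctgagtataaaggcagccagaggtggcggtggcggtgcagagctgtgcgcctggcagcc
Axin2, chr11:108920099-108920348, + strand: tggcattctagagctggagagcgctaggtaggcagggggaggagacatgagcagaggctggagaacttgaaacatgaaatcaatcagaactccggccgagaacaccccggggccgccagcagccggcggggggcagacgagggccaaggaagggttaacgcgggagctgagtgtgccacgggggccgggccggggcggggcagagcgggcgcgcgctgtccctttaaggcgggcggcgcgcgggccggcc
In Sp5 the matched letters AACAAAG, the motif on the other strand, begin 222 bases before the start, and those of the second match 104 bases before it. In Dkk1 both matches run along the gene's strand and begin 117 and 98 bases before the start. A match is a run of letters, not a measured binding site, and the lack of one in Axin2 concerns this window only.

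The other genes of the pathway were read from role lists beside the 10. Of 98 listed genes 85 were tested, of which 5 were higher and 6 lower in cKO ureters and 74 were not called, with a median log2 ratio of 0.01; over all tested genes 2.92% were higher and 5.63% lower. These counts were 2 higher and 3 lower from the authors' value table, and leaving out 1 array left 1 to 5 higher and 3 or 4 lower, the fewest higher without array 4. By role, the calls among tested genes were 1 higher and 3 lower of 15 ligands and secretion factors, and 1 and 1 of 16 receptors. They were 0 of 5 R-spondins and other Lgr receptors, 0 and 1 of 14 cytoplasmic transducers, and 0 of 12 nuclear cofactors. The list of secreted antagonists had 2 higher and 1 lower of 10, the lower being the Dkk receptor Kremen1, which is not itself secreted. A further list of reported Wnt targets had 1 higher of 13, Tnfrsf19, a receptor of the TNF family (0.30 ± 0.07, adjusted p = 0.0309), and a median of 0.11. The Tnfrsf19 call was lost on leaving out any 1 array (adjusted p from 0.0792 to 0.137). Set side by side, the feedback genes had a median of 0.50 and each of these lists one between -0.08 and 0.12; the difference between lists was not tested.

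Several genes that feed the pathway moved in opposite directions. The ligands Wnt10a and Wnt6 fell by 2.13 and 1.28 on the log2 scale. Wnt9b, a ligand of the nephric duct, had intensities of 189, 375, 417 and 412 in cKO ureters, against 109.7, 149, 144 and 144 in control ureters, and was higher (1.29 ± 0.35, adjusted p = 0.00604). Its probe is dim, and the log2 ratio was 1.95 from Agilent's processed signals and 1.96 from the authors' value table. Fzd6, a Wnt receptor, was lower (-0.82 ± 0.13, adjusted p = 0.00346) and Ror1, a receptor of the non-canonical branch, higher (0.37 ± 0.10, adjusted p = 0.0266). Wls, which carries Wnt ligands to the surface, was lower (-0.28 ± 0.12, adjusted p = 0.0339). Ctnnb1, which encodes β-catenin, was lower by a small step (-0.26 ± 0.08, adjusted p = 0.0478). Among secreted antagonists, Dkk2, a relative of Dkk1, was higher (0.54 ± 0.20, adjusted p = 0.0131), as was Sfrp2, a decoy that binds Wnt ligands (0.58 ± 0.25, adjusted p = 0.0165). Kremen1, a Dkk receptor placed in the same list though not itself secreted, was lower (-0.27 ± 0.11, adjusted p = 0.0484). The mean of all tested Kremen1 probes gave -0.21 and was not called (adjusted p = 0.0924). The calls on Wls, Ctnnb1 and Kremen1 were each lost on leaving out any 1 array (adjusted p from 0.0966 to 0.156, from 0.117 to 0.192 and from 0.0827 to 0.195), and with the authors' value table (0.0684, 0.1012 and 0.0847). The Ror1 call was lost without array 1, 2 or 4 (adjusted p = 0.109, 0.0765 and 0.115), the Sfrp2 call without array 1 or 4 (0.0647 and 0.0616) and the Dkk2 call without array 2 or 4 (0.0509 and 0.0506). With the authors' value table the Ror1 and Sfrp2 calls were also lost (adjusted p = 0.0506 and 0.0642), and the Dkk2 call was kept (0.0394). Wnt10a, Wnt6, Wnt9b and Fzd6 kept their calls without any 1 array. The R-spondin gene Rspo3 (0.20 ± 0.10, adjusted p = 0.0973) and the receptor Lgr4 (-0.26 ± 0.14, adjusted p = 0.109) were not called.

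**Figure D4:**
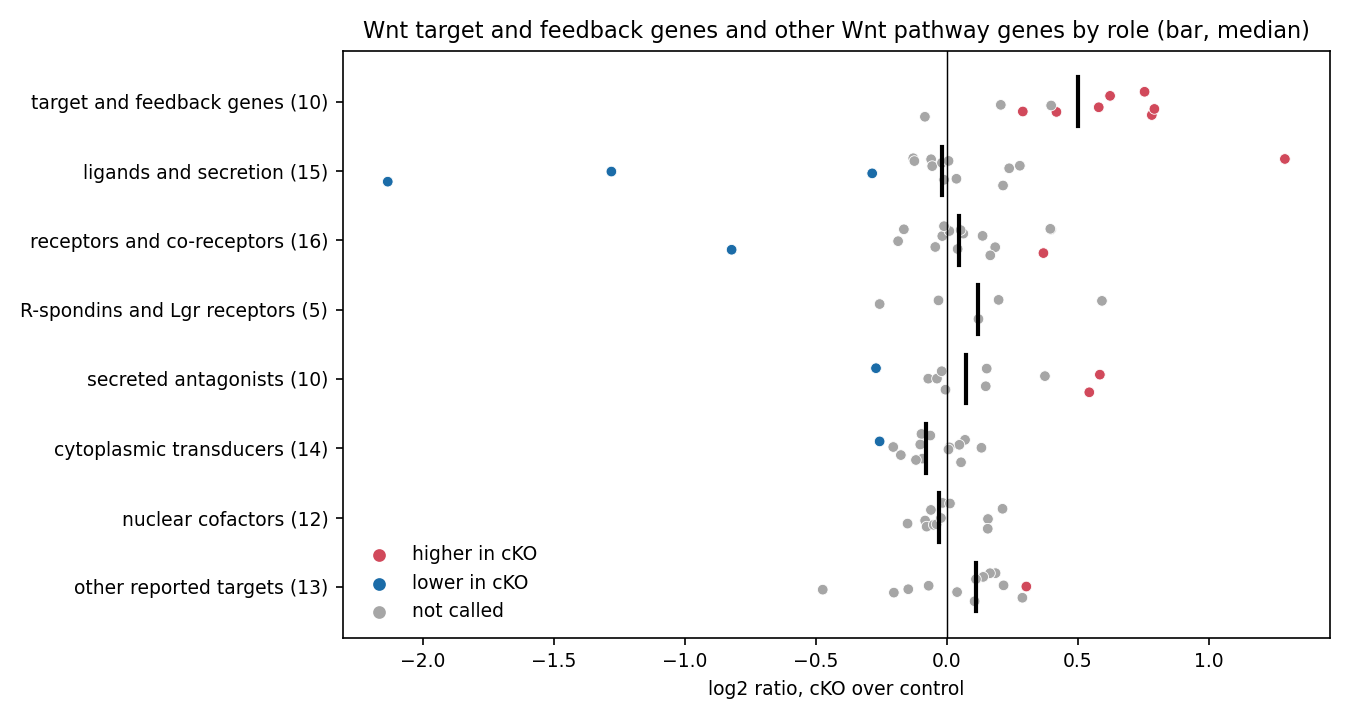
Log2 ratio of cKO over control for the 10 Wnt target and feedback genes (top row) and the 85 tested genes of 7 other role lists, with the number of genes in brackets; red, called higher in the cKO; blue, called lower; grey, not called; black bar, list median. The top row is centred at 0.50, and the other rows have medians between -0.08 and 0.12. There are 4 called genes in the row of ligands and secretion, and none among the R-spondins and the nuclear cofactors. The row of secreted antagonists has 3, including the Dkk receptor Kremen1.

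The genes whose ratios over the 4 arrays were nearest to those of Axin2, by the root mean square difference in log2 ratio, were Tmem132c (0.0522), Syt1 (0.103), Shisa2 (0.126), Ptx3 (0.167) and Crym (0.169). Each had its lowest ratio on array 2, as Axin2 had, which choosing them by this nearness favours. With 4 arrays this likeness is a description of these values only.

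How often each gene stayed past the threshold differed. Over 16 other processing choices, Sp5 was called in 15 and Axin2 in 14, Lgr5, Nkd1 and Dkk1 in 12 each and Lef1 in 11. Notum was called in 7, Tcf7 in 5, Rnf43 in 1 and Znrf3 in 0. The log2 ratio of Axin2 lay between 0.49 and 0.88 over these choices, that of Sp5 between 0.66 and 1.16 and that of Dkk1 between 0.62 and 1.37.

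**Figure D5:**
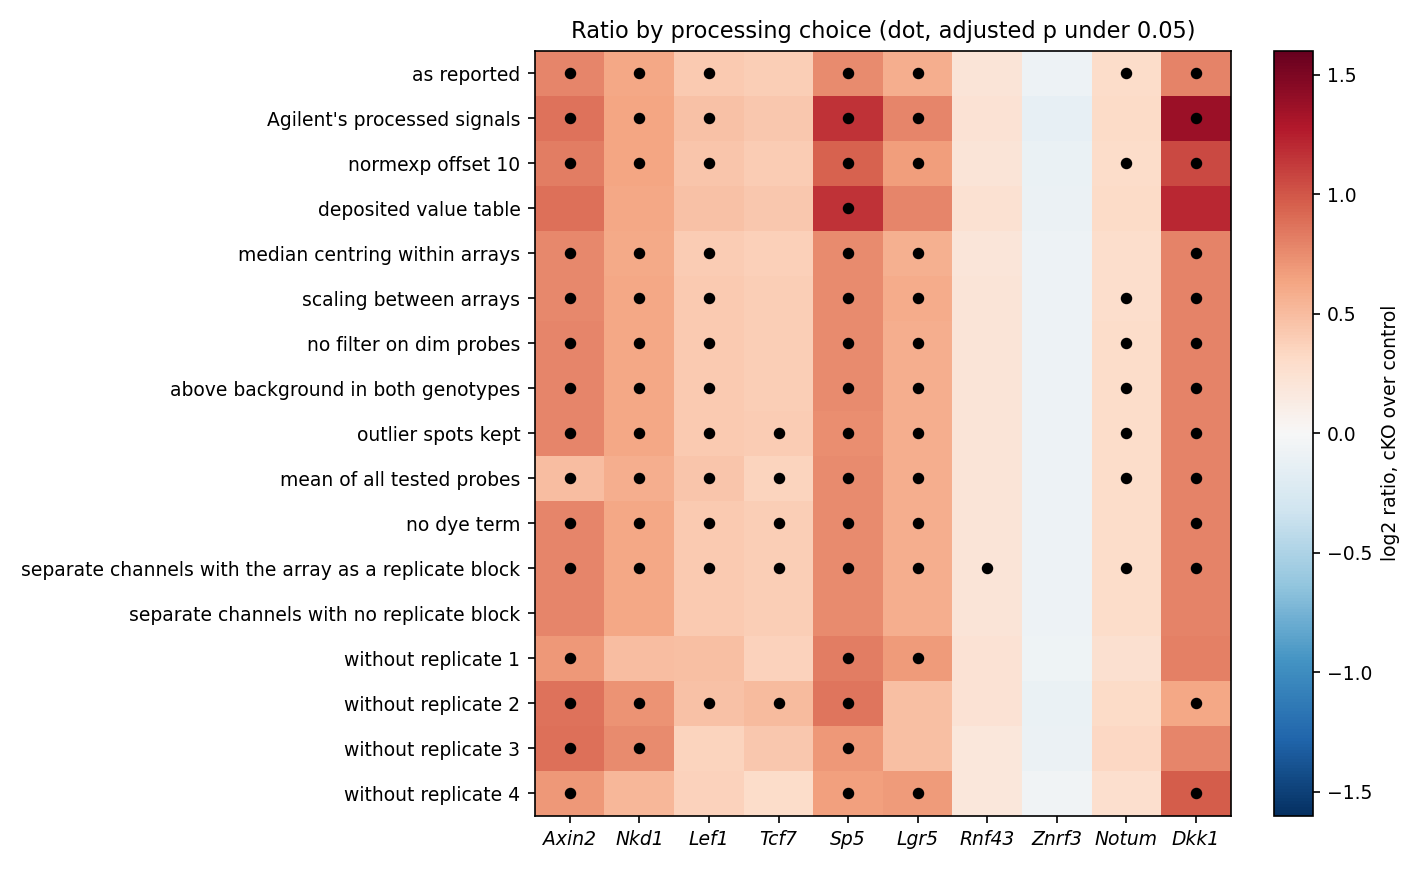
Log2 ratio of cKO over control (colour) for each gene as reported (top row) and under each of 16 other processing choices, with a dot where the adjusted p was under 0.05; "without replicate" 1 to 4 means without that array. Axin2 and Sp5 keep a dot without any 1 array, Notum loses it in all 4 such rows, Znrf3 has none, and no gene changes sign.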

How the data were processed

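Per the file headers, the authors read each image with Agilent Feature Extraction 10.7.3.1, also named in the submitters' processing notes, and deposited linear intensities: a mean signal, a local background and flags for each spot and channel. Their deposited value table gives log2 ratios, cKO over control by comparison with the scanner signals, centred at a median of 0 per array; the origin of its many exact zeros is not stated. Mean signals were corrected with normexp (offset 50) and loess in limma 3.58.1 (R 4.3.3), with control spots at weight 0. Flagged outlier spots (3.04% to 3.58% per array) were dropped and the 4 spots of a probe averaged. Intensities in the text are the single channels after a further quantile step on the average signals. A probe was tested if a share above 0.5 of its spots were well above background on all 4 arrays in the channels of 1 genotype or both. The brightest tested probe stood for a gene. The model (lmFit, then eBayes) had a genotype and a dye term, with 2 residual degrees of freedom and a prior of 3.27, and Benjamini-Hochberg adjustment ran over 18161 genes or 28396 probes. The number of arrays limits the precision.

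Symbols were updated through RefSeq genes (GRCm38.p6): of 39429 probes, an accession named 28328, a current symbol 3400 and an older symbol 243, while 1777 stayed as deposited and 5681 were unnamed. Positions of probes come from the files (mm9); no mm9 annotation was used, so exons and UTRs are not given. The genes, role lists and marker lists were chosen with earlier results of these arrays known. Named pathway genes were taken from each role list: up to 4 called with the lowest p, or the 2 brightest where none was called. The fit was run on ratios simulated from its own error model, which checks the code and not how well the model suits these arrays. All 4 arrays lay on 1 slide. With 1 male pair, a sex term beside the dye term equals array 2 minus array 4, so no comparison of the sexes is reported.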

Additional observations from a re-analysis of the deposited data

How the results depend on the processing

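The 7 of 10 genes called higher became 1 with the authors' deposited value table and between 3 and 6 when 1 array was left out. Pairing is built into each ratio; separate channels with the array as a replicate block (intra-spot correlation 0.741) called 9, and the same channels with no replicate block called 0. The other alternatives (Agilent's processed signals, normexp offset 10, median centring, scaling between arrays, no filter, a filter on both genotypes, outlier spots kept, the mean of a gene's probes, no dye term) called 6 to 8. None of the 10 was called lower under any of the 16 alternatives, and no ratio changed sign. The median of the 10 genes lay between 0.45 and 0.55. Over all tested genes, 530 higher and 1023 lower became 259 and 596 with the authors' table, 1237 and 1731 with the replicate block, 120 and 438 without it, and as few as 277 higher and 554 lower without 1 array. The other Wnt pathway genes, 5 higher and 6 lower, became 11 and 8 with the replicate block and 0 and 4 without it. The cause of these losses was not tested, beyond fewer arrays or no pairing in the fits concerned. Signals near the background limit Sp5, Znrf3, Dkk1, Wnt9b and the second probes of Axin2 and Lgr5.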
